A study of Rattus norvegicus with 10 samples.

Results

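Expression in the testis of 6-day-old rat pups is described here from the 5 one-colour arrays whose sire code carries the letter C (3C1R, 4C1R, 5C1R, 6C1R and 2C2R), out of 10 arrays in the series. Arrays were chosen by that letter alone and by no measured value. They are called C replicates 1 to 5 in the order just given, and wherever 5 values follow a gene they stand in this order. All pups came from Brown Norway fathers mated to Sprague Dawley mothers. The fathers had been given saline or BEP, which usually stands for the chemotherapy drugs bleomycin, etoposide and cisplatin, during 9 weeks, with 9 more weeks of recovery. C is read as the saline group, an inference that no label states, and the 5 arrays with a T code (read as BEP) are used below only as a second set of testes whose spread can be placed beside that of the C arrays. The design text writes 2 testes without saying how many pups stand behind an array, so the spread described is that between these 5 RNA samples.

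The testis of the first postnatal week holds seminiferous cords without a lumen. In them, immature Sertoli cells divide and surround gonocytes that are turning into spermatogonia. Meiosis has not yet begun in most cords, and the protamines and transition proteins that pack sperm chromatin belong to spermatids, which appear weeks later. Between the cords lie fetal Leydig cells that make androgens, peritubular myoid cells, vessels, macrophages and connective tissue. Whole-organ RNA mixes all of these, so that fewer cells of a type and less RNA per cell cannot be told apart.

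Every level is a log2 signal relative to the 75th percentile of the same array, so 0 is the signal that 25% of the spots exceed and each unit is a factor of 2. Probes differ in how brightly they bind, so a level is comparable between arrays for 1 gene and not between genes. A probe was counted on an array when the scanner software called at least 50% of its usable spots well above background, and a gene when any of its probes was. The 75th percentile ran from 1525 to 2686 signal units, each array detected 71.04% to 74.75% of the 30367 probes, and 0 spots were saturated. Pairs of C arrays correlated at 0.992 to 0.997 over 20893 probes. The dimmest probes called well above background had levels from -7.41 on C replicate 1 to -8.11 on C replicate 5. Slide 1 held C replicates 1, 2 and 3, and slide 2 held C replicates 4 and 5. With 5 arrays, the number of samples limits the precision of each SD.

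Upstream sequences of 3 genes are shown because each belongs to a cell type whose markers the following results turn on: Amh, the Sertoli cell hormone that makes the Müllerian ducts regress, Tnp1, a transition protein of spermatids, and Hbb, the beta chain of haemoglobin in red cells. Each run is the 250 bases before the RefSeq start, 5′ to 3′, in build GRCr8, all on the minus strand: chr7:9559868-9560117 for Amh, chr9:82044279-82044528 for Tnp1 and chr1:167663722-167663971 for Hbb. Capitals mark the motifs searched on both strands, which were AAGGTCA in Amh (the half-site bound by NR5A1), TGACGTCA in Tnp1 (the cyclic AMP response element, a palindrome) and CCAAT and CACCC in Hbb.
Amh: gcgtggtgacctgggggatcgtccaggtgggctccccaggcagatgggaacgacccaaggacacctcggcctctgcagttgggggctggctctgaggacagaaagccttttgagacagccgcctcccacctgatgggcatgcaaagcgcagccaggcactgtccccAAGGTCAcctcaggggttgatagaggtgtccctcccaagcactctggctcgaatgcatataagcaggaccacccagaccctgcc
Tnp1: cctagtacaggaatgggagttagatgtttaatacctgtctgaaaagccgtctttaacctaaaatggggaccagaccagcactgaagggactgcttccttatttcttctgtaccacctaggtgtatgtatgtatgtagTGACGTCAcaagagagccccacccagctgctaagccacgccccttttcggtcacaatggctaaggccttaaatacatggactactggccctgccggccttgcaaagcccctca
Hbb: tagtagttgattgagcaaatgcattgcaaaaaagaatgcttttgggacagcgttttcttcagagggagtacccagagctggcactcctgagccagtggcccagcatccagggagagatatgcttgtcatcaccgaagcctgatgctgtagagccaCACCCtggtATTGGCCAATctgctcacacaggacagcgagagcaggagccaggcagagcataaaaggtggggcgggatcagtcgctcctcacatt
The AAGGTCA match of Amh began 84 bases before the start, and 1034 of 27457 promoters of this length (3.77%) held that motif on either strand. The TGACGTCA of Tnp1 began 113 bases upstream, and 466 promoters (1.7%) held it. In Hbb a CACCC began 95 bases upstream and was followed by CCAAT on the reverse strand at 86 and on the given strand at 81, which adjoin without overlap. CCAAT was present in 34.3% of all promoters and CACCC in 49.4%. Among the listed erythroid genes with a probe and a promoter in the table, 8 of 11 held CCAAT and 6 of 11 held CACCC. Counted the same way, CCAAT was in 5 of 20 Sertoli, 1 of 10 Leydig steroid and 6 of 23 spermatid genes. CACCC was in 10 of 20, 5 of 10 and 15 of 23 of these. AAGGTCA was in 2 of 20 Sertoli and 0 of 10 Leydig steroid genes, and TGACGTCA in 2 of 23 spermatid genes. These matches describe letters in a window and not bound sites.

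Of the 15154 genes with a symbol and a probe, 11135 were well above background on all 5 C arrays (73.5%) and 2767 on none (18.3%). Against that background, 121 of 131 genes listed for cells of the young testis (92.4%) were above on all 5, as were 43 of 62 genes of later testis stages (69.4%), 70 of 104 genes of other cells that a dissected testis can hold (67.3%) and 16 of 54 genes of distant tissues such as liver and brain (29.6%). Members and lists were chosen with earlier results of these data known, so these shares describe the lists and test nothing. The 73.5% of all genes is the share to set beside each list's count below.

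**Figure D1:**
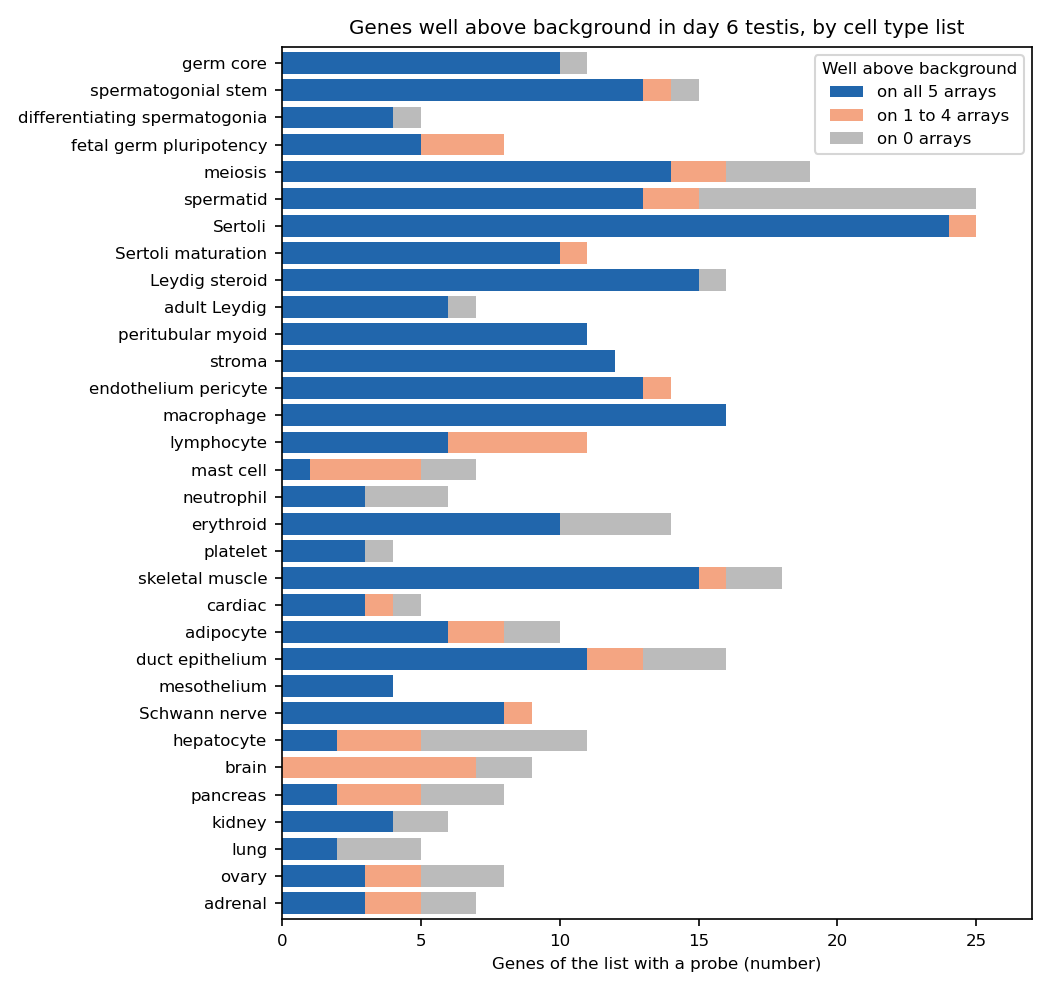
Number of genes with a probe in each cell type list, split by whether they were well above background on all 5 C arrays, on 1 to 4, or on 0. In the Sertoli list 24 of 25 genes were above on all 5 arrays, in the spermatid list 13 of 25, and in the brain list 0 of 9. Over all genes the share was 73.5%, and the lists were chosen with earlier results of these data known.

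Germ cell transcripts were measured in every testis. Of 11 genes shared by germ cells of many stages, 10 were above background on all 5 arrays, and Rnf17, a Tudor-domain gene of later germ cells, was not well above background on any. Ddx4, the germ cell RNA helicase also called Vasa, read -2.96, -3.26, -2.80, -3.05 and -2.79 (SD 0.19). For Dazl, which binds germ cell messenger RNAs, the levels were -0.055, -0.041, 0.063, 0.14 and 0.14 (SD 0.095). A weaker Dazl probe gave -1.97, -2.07, -1.94, -2.26 and -2.03. Dnd1, which protects germ cell transcripts from microRNAs, read -0.97, -0.61, -0.99, -0.97 and -0.75 (SD 0.17). All 5 testes therefore lay within a factor of 1.39 of each other for these genes, with Ddx4 the widest.

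Genes of the spermatogonial stem cell pool were above background on all arrays in 13 of 15 cases (86.7%, against 73.5% of all genes). Gfra1, the co-receptor for the growth factor GDNF, was at -2.55, -2.39, -2.51, -2.44 and -2.33 (SD 0.089). Zbtb16, a transcription factor that keeps spermatogonia undifferentiated, was at -5.04, -5.06, -5.31, -5.25 and -5.05 (SD 0.13). Neither gene set any testis apart. Tbxt, the T-box factor, varied most among the genes of this list above on all arrays, at -2.18, -2.11, -1.52, -1.03 and -1.46 (SD 0.48), with both arrays of slide 2 above all 3 of slide 1. The slide contrast described below did not call it (difference 0.69 ± 0.24, SE, limma adjusted p = 0.361). Pax7 was not well above background on any array and Lhx1 on 4 of 5. Of the 5 genes listed for differentiating spermatogonia, 4 were above on all arrays, and Dmrtb1, which acts at the entry into meiosis, was above on none. Kit, the receptor that marks differentiating spermatogonia and is also carried by some Leydig cells, read -3.42, -3.58, -3.52, -3.64 and -3.43 (SD 0.096). Genes that gonocytes share with pluripotent cells were less complete, with 5 of 8 above on all arrays (62.5%). Pou5f1, Dppa3 and Lin28a were among these, whereas Nanog was above on 2 arrays and Sox2 on 1.

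Transcripts named for meiosis were present in part, with 14 of 19 genes above background on all 5 arrays (73.7%), close to the 73.5% of all genes. Sycp3, a protein of the axis of meiotic chromosomes, was measured in every testis at -4.11, -3.86, -3.68, -3.65 and -3.64 (SD 0.20). Sycp1, which zips paired chromosomes together, was above background on 2 arrays only, with -6.99, -6.85, -6.46, -6.87 and -6.01. Dmc1, the recombinase of meiosis, was above on 4 arrays, with -6.50, -6.34, -6.25, -5.61 and -5.92. Rec8, the meiotic cohesin, had the widest spread of those above on all arrays, at -6.62, -5.68, -6.18, -5.13 and -5.63 (SD 0.57), although spots of its probe on 1 array already differed by an SD of 0.65. Sycp2, Pgk2 and Piwil1 were not well above background on any array. C replicate 1 was the lowest of the 5 for 7 of the 14 genes, and C replicate 5 for 0, where they were the lowest for 19.97% and 23.93% of all named genes.

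Among 25 genes of spermatids and sperm, 13 were above background on all arrays (52%, against 73.5% of all genes), 2 on some and 10 on none. The 10 were Tnp2, Acrv1, Odf1, Gapdhs, Tssk1b, Tssk2, Tssk6, Smcp, Actl7b and Izumo1, which serve the chromatin, acrosome, tail fibres, energy supply and egg fusion of sperm. Tnp1, in contrast, was at -3.83, -3.57, -3.71, -3.54 and -3.70 (SD 0.12). A link between this signal and the cyclic AMP response element printed above, which 2 of 23 spermatid promoters held, was not tested. Prm1, the first protamine, read -3.54, -3.94, -4.20, -4.46 and -4.65 (SD 0.44), with both arrays of slide 2 below those of slide 1. That difference did not pass the slide contrast (-0.66 ± 0.20, SE, limma adjusted p = 0.295). Prm2, Acr, Akap3, Zpbp, Spem1, Spaca1, H1f6, Actl7a, Pdha2, Odf2 and Crem were the other genes above on all arrays. Crem encodes the factor that binds cyclic AMP response elements in spermatids and is also made in other cells. Akap4, the main scaffold of the sperm tail sheath, was above background on 1 array, C replicate 5, at -8.10. Whether the signal of the spermatid probes came from spermatid transcripts was not tested.

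**Figure D2:**
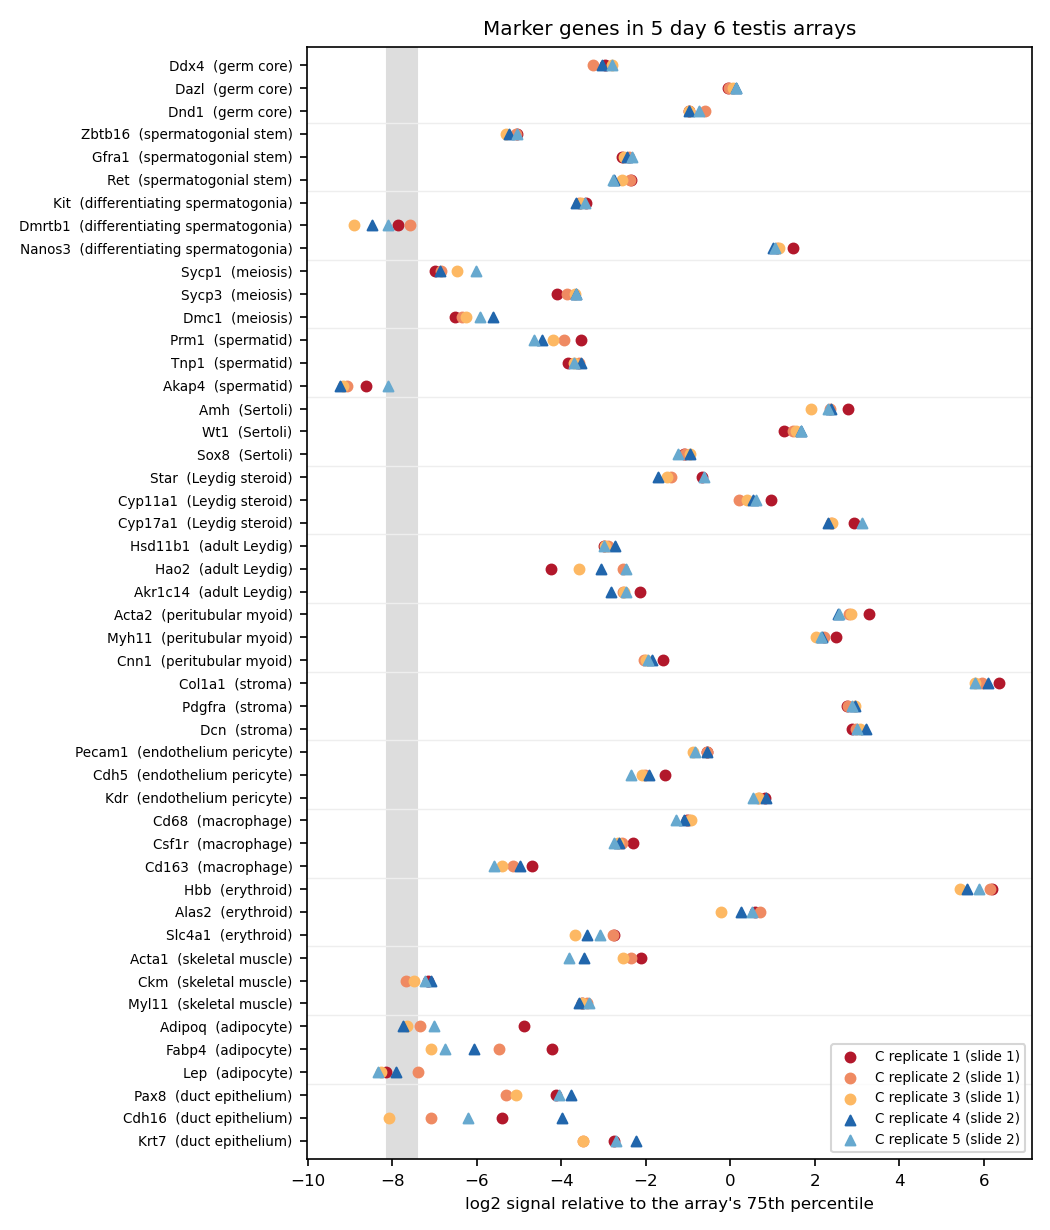
Levels of the first 3 genes with a probe in 16 lists, as log2 signal relative to the 75th percentile of each array, with circles for slide 1 and triangles for slide 2. The grey band spans the dimmest levels called well above background on the 5 arrays, from -7.41 to -8.11, and Adipoq and Fabp4 show the widest scatter with Cdh16.

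Sertoli cell genes were nearly complete, with 24 of 25 above background on all arrays (96%, against 73.5% of all genes), and Fgf9 on 3. No probe here carried the symbol Sox9. Amh was at 2.79, 2.37, 1.92, 2.39 and 2.31 (SD 0.31), a 1.83-fold range with C replicate 1 highest and C replicate 3 lowest. Wt1, a transcription factor that Sertoli cells need throughout life, was steadier at 1.28, 1.49, 1.55, 1.66 and 1.66 (SD 0.16). Sox8, a relative of Sox9, was at -1.10, -1.08, -0.96, -0.96 and -1.23 (SD 0.11). Ptgds, a prostaglandin synthase, had the largest spread in the list among genes above on all arrays, at -1.67, -1.73, -1.49, -2.18 and -2.56 (SD 0.44). Its 2 values on slide 2 lay below all 3 on slide 1, with a difference of -0.74 ± 0.15 (SE) that the slide contrast did not call (limma adjusted p = 0.111). The median SD of the Sertoli list was 0.12, against 0.14 over all named genes above background on all arrays.

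Genes of later Sertoli maturation were also measured at this age, with 10 of 11 above background on all arrays and Gata1 on 4. Rhox5, a homeobox gene under androgen control in Sertoli cells, varied over a 2.65-fold range, at -3.11, -2.17, -3.58, -3.42 and -3.0 (SD 0.54, and 0.27 without C replicate 2). Cst12, a cystatin, was highest on C replicates 2 and 3, at -2.31, -1.18, -1.09, -2.32 and -1.84 (SD 0.59). These genes did not share one order of the arrays: Rhox5 was highest on C replicate 2 and lowest on C replicate 3, the array on which Cst12 was highest.

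The steroid pathway of Leydig cells was represented by 15 of 16 genes on all arrays. Lhcgr, the receptor for luteinizing hormone, was the exception and was not well above background on any, as far as its 1 named probe can show. Star, which carries cholesterol into mitochondria, was at -0.68, -1.41, -1.49, -1.71 and -0.63 (SD 0.50), with C replicates 1 and 5 above the other 3. Cyp17a1, the enzyme that makes androgen precursors, had the same 2 arrays on top, at 2.93, 2.39, 2.40, 2.31 and 3.1 (SD 0.36). Cyp11a1, which cuts the cholesterol side chain, was at 0.95, 0.21, 0.40, 0.53 and 0.61 (SD 0.27), again with C replicates 1 and 5 highest. Insl3, the Leydig cell hormone of testis descent, which was picked for mention after its values were seen, differed from them in having C replicate 5 lowest, at 2.71, 1.95, 1.80, 2.10 and 1.49 (SD 0.45, and 0.26 without C replicate 1). Over the 15 genes, C replicate 1 stood 0.21 above the genes' own means and C replicate 3 stood 0.12 below, a range of 0.32 that fell to 0.15 without C replicate 1.

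Genes typical of adult Leydig cells were above background on all arrays in 6 of 7 cases, and Hsd17b6 on none. Hsd11b1, the enzyme that interconverts active and inactive glucocorticoids, was steady at -2.99, -2.90, -2.98, -2.73 and -2.98 (SD 0.11). Hao2, an oxidase, spread over a 3.41-fold range, at -4.23, -2.54, -3.57, -3.05 and -2.46 (SD 0.74). The lowest Hao2 value belonged to C replicate 1, the array with the highest Cyp11a1 value.

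Peritubular myoid cells, connective tissue and macrophages were each complete, with 11 of 11, 12 of 12 and 16 of 16 genes above background on all arrays. Acta2, smooth muscle actin, read 3.28, 2.81, 2.86, 2.54 and 2.57 (SD 0.29, and 0.16 without C replicate 1), and Myh11, smooth muscle myosin, read 2.50, 2.21, 2.03, 2.18 and 2.14 (SD 0.18). C replicate 1 was the highest of the 5 arrays for 9 of the 11 myoid genes, where it was the highest for 34.3% of all 11129 named genes above on every array. In other lists of bright genes it was highest for 8 of 13 housekeeping, 8 of 12 insulin-like growth factor and 3 of 6 heat shock genes. For connective tissue it was 5 of 12 and for the cell cycle 6 of 17. Among the myoid genes Lmod1, which starts actin filaments, was the exception with the widest spread, at -4.48, -3.52, -3.74, -4.85 and -4.83 (SD 0.62). A dimmer Lmod1 probe did not follow that order and was highest on C replicate 1, at -3.92, -4.36, -4.71, -4.45 and -4.55. Col1a1, the main collagen of connective tissue, was at 6.36, 5.95, 5.79, 6.10 and 5.80 (SD 0.24, and 0.099 with quantile normalization). Cd68, a lysosomal protein of macrophages, was at -1.02, -0.97, -0.92, -1.11 and -1.29 (SD 0.15). Csf1r, the receptor through which macrophages are maintained, was at -2.30, -2.56, -2.66, -2.63 and -2.75 (SD 0.17). Cd163, the haemoglobin scavenger of resident macrophages, was dimmer and varied more, at -4.69, -5.15, -5.40, -4.97 and -5.58 (SD 0.35). That larger spread was lost with normexp background correction, where the SDs were 0.11 for Cd163, 0.16 for Cd68 and 0.11 for Csf1r. Endothelial and pericyte genes were above on all arrays in 13 of 14 cases, with Tek on 2, and Pecam1, a junction protein of vessels, was at -0.56, -0.56, -0.87, -0.56 and -0.83 (SD 0.16).

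The signalling systems of the young testis were measured almost whole, where 73.5% of all genes were above background on all arrays. In the FSH, activin and AMH list 10 of 10 genes were above background on all arrays, among them the receptors Fshr and Amhr2 and the inhibin subunits Inha, Inhba and Inhbb. For stem cell niche signals it was 13 of 14, for insulin-like growth factors 12 of 12, for hedgehog 6 of 7, for retinoic acid 12 of 14 and for the piRNA pathway 8 of 9. Gdnf, the Sertoli cell ligand of Gfra1, was steady at -2.99, -2.75, -2.94, -2.84 and -3.02 (SD 0.11). Kitlg, the ligand of Kit, was steadier still on its brightest probe, at 1.81, 1.91, 1.92, 1.83 and 1.99 (SD 0.074). Ligands and receptors of both pairs were thus above background in every testis. Igf2, the fetal growth factor expressed from the paternal allele, was at 3.23, 3.01, 2.80, 3.07 and 2.69 (SD 0.22). H19, its maternally expressed neighbour, was at 4.19, 3.95, 3.71, 4.10 and 3.81 (SD 0.20). Both had C replicate 1 highest and C replicate 4 next. C replicate 1 was the highest array for 34.3% of all named genes. Rpl41, a ribosomal protein gene with the highest level of the named genes, had the same 2 arrays on top, at 7.90, 7.50, 7.25, 7.68 and 7.42. In the retinoic acid list Cyp26b1, which destroys retinoic acid and holds back meiosis in the fetal testis, was above on every array, and Cyp26a1 and Aldh1a3 were above on 4. In the DNA methylation list 3 of 4 genes were above on all arrays (75%, near the 73.5% of all genes), and the probe named Dnmt1 was above on none.

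All 17 genes of the cell cycle list were above background on every array, and their median SD was 0.084, below the 0.14 over all named genes. The list is bright, with a median level of 2.29, and probes above the 75th percentile had a median SD of 0.11. Immediate early genes, which respond within minutes to handling and stress, varied more, with 15 of 16 above on all arrays and a median SD of 0.23. They were dimmer, with a median level of -1.54, and probes at or below the 75th percentile had a median SD of 0.18. Fos was at -6.19, -4.50, -5.84, -6.30 and -5.21 (SD 0.75), highest on C replicate 2. Egr1 was at -0.77, -0.98, -1.41, -1.62 and -1.17 (SD 0.34), highest on C replicate 1, while Nr4a1 held within a factor of 1.12, at -0.15, -0.19, -0.20, -0.10 and -0.27. C replicate 2 was the highest array for 8 of the 15 genes, against 13.9% of all named genes.

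Markers of cells that can come along with a dissected testis were partly present, with 67.3% above background on all arrays against 73.5% of all genes. In the erythroid list 10 of 14 genes were above on all arrays (71.4%), with Epb42, Rhag and Hbe1 among those on none. Hbb was at 6.18, 6.14, 5.43, 5.59 and 5.89 (SD 0.33), and Hba-a1, the alpha chain, was at 7.11, 6.86, 6.28, 6.78 and 6.74 (SD 0.30). The array of lowest haemoglobin signal was C replicate 3 for both. Rpl41, the brightest named gene, was likewise highest on C replicate 1 and lowest on C replicate 3. With quantile normalization the SD fell to 0.15 for Hba-a1 and to 0.27 for Hbb. Alas2, which starts haem synthesis in red cell precursors, was at 0.58, 0.71, -0.22, 0.25 and 0.52 (SD 0.37, and 0.20 without C replicate 3). With quantile normalization the SD of Alas2 was also 0.37. Slc4a1, the anion exchanger of red cells, was at -2.75, -2.77, -3.68, -3.39 and -3.08 (SD 0.40). Hemgn, a nuclear protein of blood precursors, was at -5.62, -5.22, -6.60, -6.07 and -5.74 (SD 0.52). C replicate 3 was lowest for 9 of the 10 genes, against 28.2% of all named genes, and the list's mean deviation ran from 0.31 on C replicate 1 and 0.28 on C replicate 2 to -0.50 on C replicate 3. Without C replicate 3 this range of 0.81 fell to 0.40. The T arrays had smaller SDs for Alas2 (0.080) and Slc4a1 (0.15), a difference that was not tested.

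Fat cell markers were present in part, with 6 of 10 genes above background on all arrays (60%, against 73.5% of all genes). Lep and Cidec were above on none, Retn on 3 and Adipoq on 1. Adipoq, the fat cell hormone adiponectin, was at -4.88, -7.34, -7.66, -7.75 and -7.00, above background on C replicate 1 only. Fabp4, the fatty acid binding protein of fat cells and small vessels, was at -4.22, -5.46, -7.09, -6.07 and -6.76 (SD 1.14). Pparg, the nuclear receptor that drives fat cell formation, had the arrays in the same order as Fabp4, at -3.92, -4.90, -5.98, -5.58 and -5.87 (SD 0.85). All 3 genes were highest on C replicate 1, as were 3 of the list's 6 genes above background on every array, against 34.3% of all named genes. The mean deviation of the list's 6 genes was 0.61 on C replicate 1 and -0.38 on C replicate 5, and the range of 0.99 fell to 0.58 without C replicate 1. Fabp4 and Pparg weigh heavily in that mean, as the median SD of the 6 genes was 0.36. The part of adherent fat in these values was not tested.

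Epithelial genes of the efferent ducts and epididymis were above background on all arrays in 11 of 16 cases (68.8%, against 73.5% of all genes). Crisp1, Lcn8 and Spag11a were above on none. Pax8, a transcription factor of duct epithelium, was at -4.13, -5.31, -5.06, -3.77 and -4.06 (SD 0.67). Krt7, a keratin of simple epithelia, was at -2.74, -3.50, -3.48, -2.23 and -2.70 (SD 0.55), and Krt19, another such keratin, was at -2.20, -3.06, -3.19, -1.35 and -1.90 (SD 0.78). Cdh16, a cadherin of kidney and duct epithelium, was at -5.39, -7.07, -8.08, -3.98 and -6.21, above background on 3 arrays. Mal2, a transport protein of polarized epithelia that is not in this list but among the 25 most variable genes below, was at -5.51, -6.48, -6.03, -4.21 and -4.70 (SD 0.93). C replicate 4 was highest and C replicates 2 and 3 were lowest for these 5 genes, and over the list C replicate 4 was highest for 6 of 11 genes, against 24.1% of all named genes. Cldn3, an epithelial tight junction protein and also a claudin of Sertoli cells, was chosen after its values were seen and had the same arrays at the ends, at -3.88, -7.12, -5.29, -2.35 and -2.85. The list's mean deviation was 0.32 on C replicate 4, -0.28 on C replicate 2 and -0.27 on C replicate 3. Its range of 0.60 fell to 0.43 without C replicate 4, and the part of duct tissue was not tested.

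**Figure D3:**
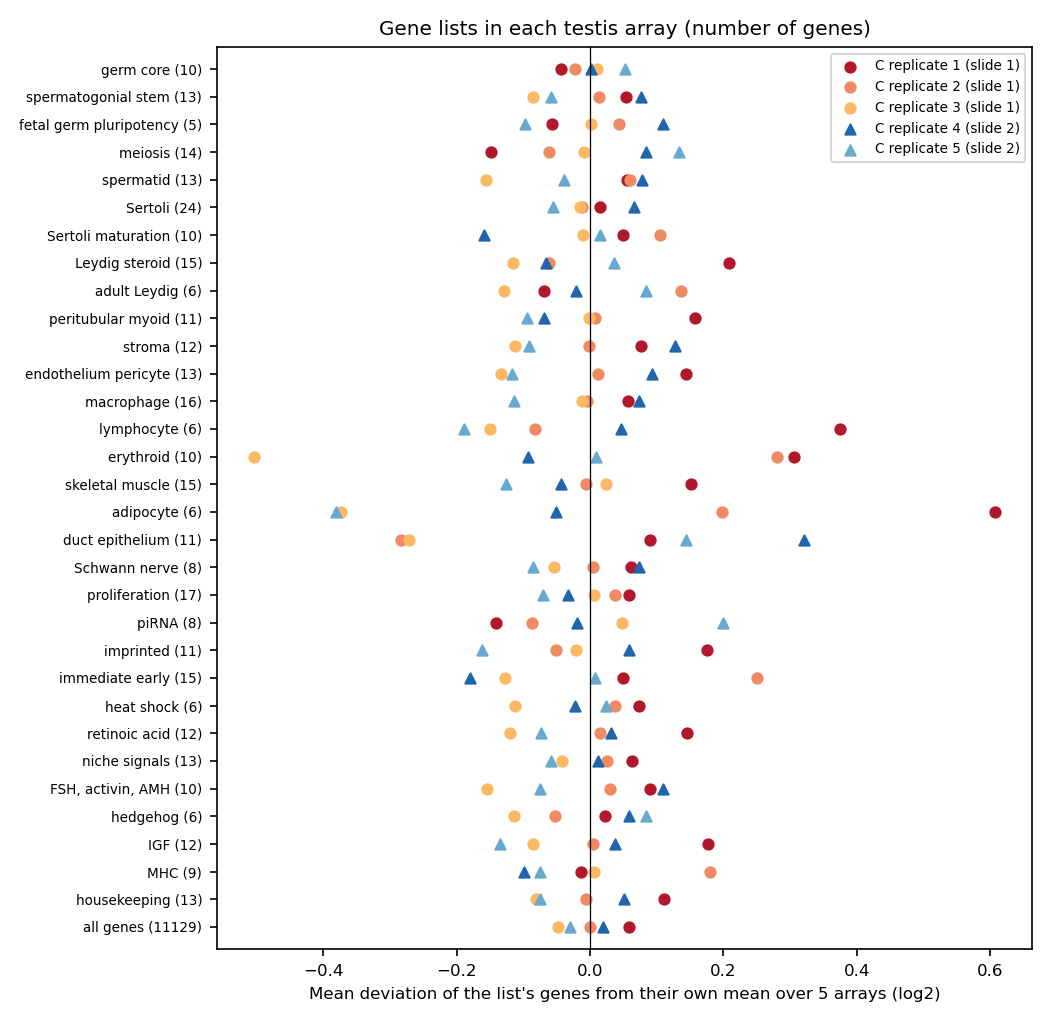
Mean deviation of each list's genes from their own mean over the 5 C arrays, on a log2 scale, for genes above background on all arrays, with circles for slide 1 and triangles for slide 2 and the number of genes in brackets. The erythroid, fat cell, duct and lymphocyte lists spread over 0.81, 0.99, 0.60 and 0.56, against 0.11 for all named genes. Fabp4 and Pparg weigh heavily in the fat cell mean.

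Markers of the remaining cell types differed in how many were detected. Skeletal muscle genes were above on all arrays in 15 of 18 cases, but Ckm, the creatine kinase of muscle, and Myod1, its master regulator, were above on none. Acta1, skeletal muscle actin, was at -2.11, -2.35, -2.55, -3.46 and -3.82 (SD 0.74), with slide 2 below slide 1. Mast cells had 1 of 7 genes above on all arrays, with Cpa3 and Ms4a2 on none, neutrophils 3 of 6, with Elane, Ngp and Ltf on none, and lymphocytes 6 of 11, with Cd3e on 2. C replicate 1 was highest for 5 of the 6 lymphocyte genes above on all arrays, against 34.3% of all named genes. The range of that list's mean deviation was 0.56, and 0.24 without C replicate 1. Nerve and Schwann cells had 8 of 9 and mesothelium 4 of 4. Of distant tissues, brain had 0 of 9 genes above on all arrays, liver 2 of 11 (Ahsg and Fgg, with Alb on none), pancreas 2 of 8 (Ins1 and Ctrb1), lung 2 of 5 (Sftpc and Scgb1a1) and kidney 4 of 6 (Umod, Slc12a3 and Aqp2 among them). In the ovary list 3 of 8 were above on all arrays, namely Rspo1, Wnt4 and Zp3, and in the adrenal list 3 of 7, namely Cyp21a1, Mrap and Pnmt.

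Testes of the C group were close to each other for most genes. Among the 20893 probes above background on all 5 arrays, the median SD between testes was 0.15 on the log2 scale, and 571 probes (2.73%) had an SD of at least 0.5 and 27 of at least 1. On the 12455 of these with several spots, the median SD between testes was 0.139 where spots of 1 probe on 1 array had a median SD of 0.070, and for 80.8% of them the testes differed by more than the spots. Bright probes varied less: the median SD was 0.11 for the 6697 above the 75th percentile and 0.24 for the 4952 below a level of -4. Of 68 genes above background on every array whose values are printed, 24 had an SD that fell by over 1.5 times when 1 array was left out. Within slides the median SD was 0.14, and over the T arrays it was 0.14 for the same probes.

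**Figure D4:**
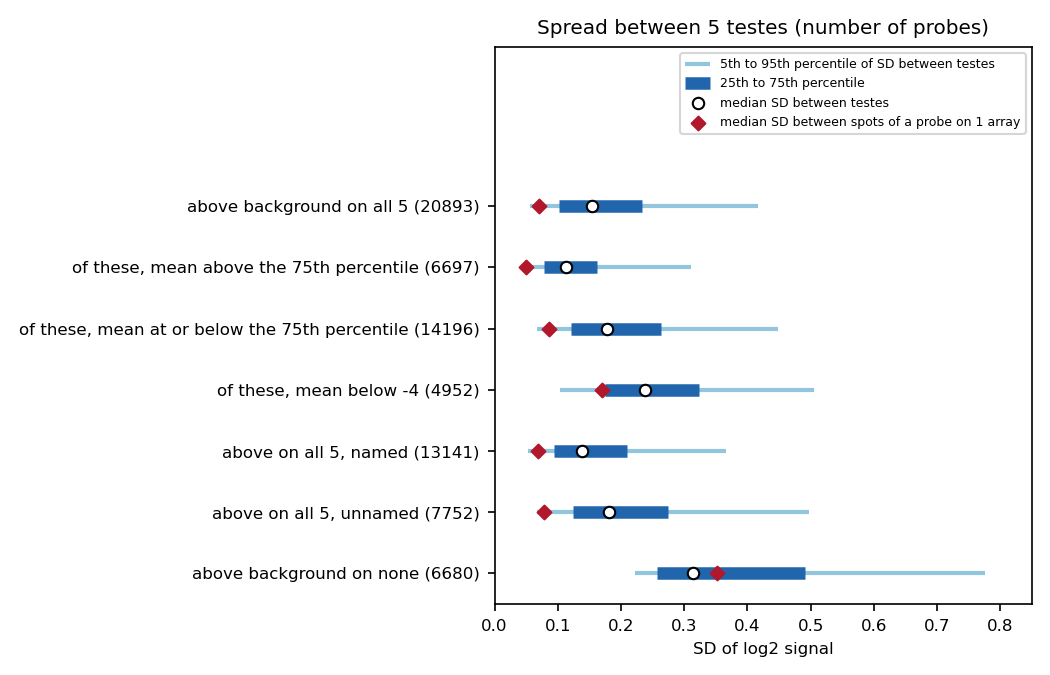
SD of log2 signal between the 5 C arrays by set of probes, as the 5th to 95th percentile (thin line), the 25th to 75th (thick line) and the median (circle), with the median SD between spots of a probe on 1 array (diamond). The median SD between testes was 0.15 for all probes above background on every array and 0.31 for those above background on none, where the spots differed by 0.35.

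The 25 named genes with the largest SD among those above background on every array had SDs from 0.78 (Rgs1) to 1.68 (Gjb2), and the first gene outside, Srxn1, had 0.77. For 19 of the 25 (76%) the SD over the T arrays was among the top 5% there, and of the 557 genes in the top 5% of the C arrays 237 were (42.6%). The examples that follow were picked after their values were seen, and other genes of the 25, such as Fabp4 and Il24, had values spread between the ends. Gjb2, the connexin 26 gap junction protein, was at -3.07, -6.12, -6.19, -2.97 and -5.97, with C replicates 1 and 4 up to 9.3-fold above the other 3. Fabp12, a fatty acid binding protein of germ cells, was at -3.21, -2.92, -3.07, -5.94 and -2.98, low on C replicate 4 only. Epb41l4a, a cytoskeletal linker, was at -0.90, -2.58, -0.79, -0.84 and -2.82, low on C replicates 2 and 5. Fam111a, a protease that acts at DNA replication forks, was at -2.86, -2.81, -2.64, -0.90 and -2.73, high on C replicate 4, and its second probe followed at -2.99, -3.25, -2.72, -0.73 and -2.97. Fgf13, an intracellular member of the fibroblast growth factor family, was at -2.22, -0.33, -2.24, -1.60 and -0.39, and its dimmer second probe had the same arrays high, at -5.60, -4.27, -5.86, -5.22 and -4.15.

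Several of these genes shared both the arrays and the place on the chromosome. Lgals5 and Lgals9, sugar-binding galectins with 0 protein-coding genes between them in the RefSeq table, were both low on C replicates 1 and 3. Lgals5 was at -1.75, 0.32, -1.98, 0.14 and -0.16 (SD 1.09). Lgals9 was at -2.34, -0.44, -2.67, -0.77 and -1.01 (SD 0.99). Pipox, an enzyme of pipecolic acid breakdown with 37 protein-coding genes between it and Lgals9, had the same arrays low, at -2.13, -0.73, -2.05, -0.52 and -0.74 (SD 0.79). Crygb and Crygc, lens crystallins that are direct neighbours, were low on C replicates 2 and 4. Crygb was at -3.73, -4.90, -3.52, -5.46 and -3.24 (SD 0.96), and Crygc was at -3.50, -4.65, -3.42, -5.57 and -3.40 (SD 0.97). Atp7a, the copper transporter, was low on the same 2 arrays, at -0.89, -2.21, -0.23, -2.29 and -0.31 (SD 1.01), as was Dmrtc1b, at -3.58, -5.31, -3.37, -5.00 and -3.49 (SD 0.93). The chromosome places of Atp7a and Dmrtc1b were not compared with those of the crystallins. Fabp12 and Fabp4 also adjoin with 0 protein-coding genes between them, but their values above did not share an order. Probes of near-identical family members, such as the crystallins and galectins, may bind more than one transcript, which was not tested.

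A few genes with large spread were above background on only some arrays, and they were chosen after their values were seen. Their low side is taken as the dimmest level of a detected probe on that array, or the gene's own level if higher. Only 1% of detected probes lay under levels of -6.36 (C replicate 1) to -6.97 (C replicate 4). Folds set against those levels would be smaller. Zp2, a glycoprotein of the egg coat, was at -0.82, -8.83, -8.38, -8.95 and -0.59 on its 1 spot per array. C replicates 1 and 5 were each at least 132-fold above the level that the dimmest detected probes set on each of the other 3. Over the T arrays its SD was 4.48. Hsd3b3, a steroid dehydrogenase, was at -0.19, -0.54, -0.74, -0.96 and -8.80. Each of 4 testes was at least 142-fold above the level of the dimmest detected probe on C replicate 5. The probe named Hsd3b1, of the same family of close copies, was above background on all 5 arrays with an SD of 0.085. The T arrays had an SD of 0.44 for Hsd3b3. RT1-CE10, a class I histocompatibility gene, was at -3.33, -6.74, -3.47, -3.27 and -3.33, at least 9.64-fold lower on C replicate 2 than on each other array. Np4, Defa5 and RatNP-3b, which encode antimicrobial defensins of the neutrophil and Paneth cell families, were all high on C replicate 4. Probes of these related genes may bind more than 1 transcript, which was not tested. Np4 was at -8.38, -8.81, -8.44, -3.28 and -8.99. Defa5 was at -8.19, -7.08, -8.87, -3.22 and -8.98, and RatNP-3b was at -8.54, -8.97, -7.99, -3.72 and -7.54. Defa5 was above background on C replicate 2 as well. Of the 6 neutrophil markers, Elane, Ngp and Ltf were not well above background on that array either, and S100a8, S100a9 and Camp were above on all 5.

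**Figure D5:**
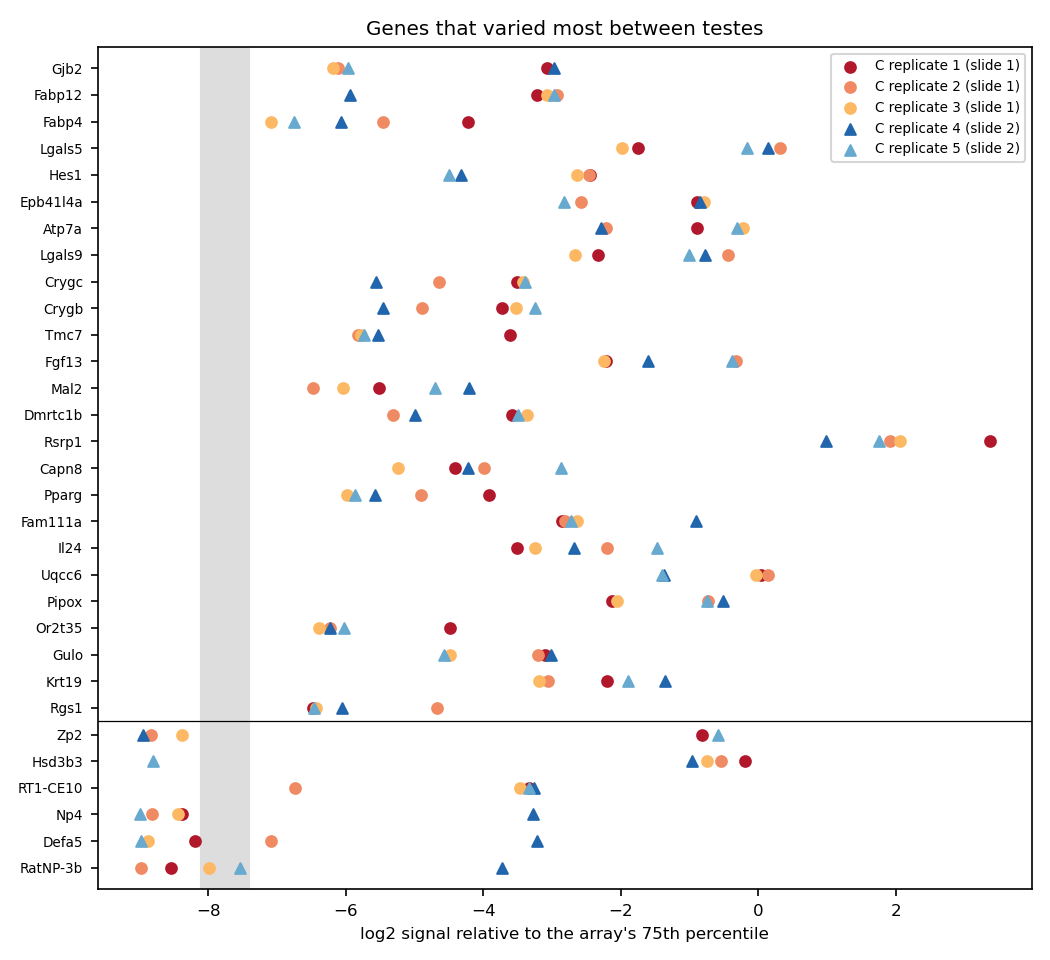
Levels of the 25 named genes with the largest SD among those above background on all 5 C arrays, and below the line 6 genes above background on only some, with circles for slide 1 and triangles for slide 2. The grey band spans the dimmest levels called well above background, from -7.41 to -8.11, and Zp2 and Hsd3b3 have values on both sides of it.

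The slides were compared within the C arrays because each held more than 1 of them. With limma, 329 of 21929 probes (1.5%) differed between slides at a Benjamini-Hochberg adjusted p under 0.05, of which 320 (1.46%) were lower and 9 (0.041%) higher on slide 2, and 2414 had an unadjusted p under 0.05. Of the 329 probes, 291 (88.5%) had no gene symbol here, against 37.5% of the probes tested. Among 390 listed genes tested, 1 was called, Acta1, at -1.31 ± 0.17 (SE, 3 and 2 arrays, limma adjusted p = 0.0268). Hes1, a target of Notch signalling, was at -2.45, -2.46, -2.64, -4.33 and -4.50, a slide difference of -1.90 ± 0.12 (limma adjusted p = 0.00538). Uqcc6, an assembly factor of respiratory complex III, was at 0.045, 0.15, -0.026, -1.37 and -1.40 (difference -1.44 ± 0.10, limma adjusted p = 0.00538), and its second probe was at -0.46, -0.19, -0.54, -1.98 and -1.91. Hes1 and Uqcc6 were the 2 of the 25 most variable genes that the contrast called. Over the T arrays, which lay on both slides too, the SD was 0.26 for Hes1 and 0.77 for Uqcc6. The cause of these differences was not tested. The count fell to 3 probes without C replicate 4 and to 5 without C replicate 5, each of which left slide 2 with 1 array assumed to vary like the others, and to 68 without C replicate 2. It was 186 without C replicate 3 and 208 without C replicate 1. On simulated arrays, 0 of 200 probes shifted by 0.5 and 97 of 200 shifted by 1 were called.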

How the data were processed

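Testis RNA (100 ng) was labelled with 1 dye and hybridised, per the labels' protocols. The deposited scanner files hold intensities that, per the file headers, were written by version 10.7.3.1 of Agilent's Feature Extraction software (the submitters' processing notes give 10.7), with the background subtracted and no scaling between arrays. Each array had 62976 spots, of which 4259 controls were left out. The processed signal was taken as log2 minus the array's 75th percentile over 58717 spots, outlier spots (494 to 745 per array) were dropped, and spots of a probe were averaged. The authors' deposited log2 table, centred per probe, served only as an alternative for the spread.

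A RefSeq table (assembly GRCr8) named 17998 of 30367 probes. A gene's brightest probe gives its level. Lists (46, with 571 entries, 497 of them with a probe) name the genes in the text: the first 3 entries of a list, its member of largest SD, young testis members above background on no array, later or other members above on all, and the 25 genes of largest SD. Members and lists were chosen with earlier results of these data known. Genes outside this rule are marked as chosen after their values were seen or are given with their detection only, and Hsd3b1 was added beside Hsd3b3 after its values were seen.

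Slides, read from the headers, were compared in R 4.3.3 by limma 3.58.1 (linear model with moderated variance, two-sided, probes above background on at least 3 of 5 C arrays), and the test was tried on simulated data. Other summaries used Python 3.11.15 and pandas 2.3.3. Levels were not compared between C and T arrays. Alternatives were other scalings, normexp background correction (offset 50, on the median spot signal), filters, detection rules, the variance model and leaving out each array. Some items are not reported here.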

Additional observations from a re-analysis of the deposited data

Results flagged for a closer look

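In 114 groups of 5 C arrays (81 genes with values in the text, 31 list means and 2 array measures), the highest or lowest array was checked for a gap to the next that exceeded 0.71 of the whole range, and 10 did. Chance alone marks about 1 group in 20, and many of these genes were named for their large SD. C replicate 1 stood high for Adipoq (-4.88, next -7.00), Tmc7, a membrane channel-like protein (-3.61, next -5.53), and Or2t35, an olfactory receptor (-4.48, next -6.02). C replicate 2 stood high for Rgs1, a regulator of G protein signalling in leukocytes (-4.67, next -6.06), and low for RT1-CE10 (-6.74, next -3.47). C replicate 4 stood high for Fam111a (-0.90, next -2.64), Np4 (-3.28, next -8.38) and RatNP-3b (-3.72, next -7.54), and low for Fabp12 (-5.94, next -3.21). C replicate 5 stood low for Hsd3b3 (-8.80, next -0.96). None of the 31 list means had such a gap.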

How the results depend on the processing

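Probes above background on all arrays numbered 20893, and 20921 to 21189 with each array left out in turn. Those above on none numbered 6680 (6835 to 7147), and 2164 when the signal was set against the negative controls in place of the scanner's flag. The median SD of 0.154 ranged from 0.114 with normexp to 0.215 without a filter over 12 alternatives (0.132 to 0.160 with each array left out). Probes with an SD of at least 0.5 numbered 571 (511 to 688), but 241 with normexp, 319 within slides and 3559 without a filter on dim probes. Listed genes above background numbered 368 (368 to 377). The slide contrast called 329 probes, but 496 with normexp, 577 with trend and robust moderation, 121 without a filter and 3 to 208 with each array left out. The causes were not tested. Of 68 genes above background on every array with values in the text, 24 had an SD that fell by over 1.5 times with 1 array left out, 9 of them by over 2 times. The SDs of Fabp12, Fam111a and RT1-CE10 fell to 0.13, 0.097 and 0.085 without C replicate 4, 4 and 2. Signal over background limits all levels under about -7. No paired analysis was possible because C and T arrays were not compared, the slides hold different replicates, and the replicate numbers follow accession order.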

Other observations

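Histocompatibility genes were above background on all 5 C arrays in 9 of 10 cases, with RT1-CE10 on 4, and the 9 had a median SD of 0.27, against 0.14 over all named genes. Their mean deviation was highest on C replicate 2 (0.18), the array on which RT1-CE10 was low. Heat shock genes were above on all arrays in 6 of 6 cases with a median SD of 0.11, and housekeeping genes in 13 of 13 with 0.12. Il24, a cytokine of the interleukin 10 family, was among the 25 most variable genes at -3.51, -2.20, -3.25, -2.68 and -1.47 for C replicates 1 to 5.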
